A study of Mus musculus with 5 samples.

Results

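The 5 genes described here encode the chemokines Cxcl9, Cxcl10 and Cxcl16 and the receptors Cxcr3 and Cxcr6, which bind them. They were chosen by name, as 5 of the 16498 genes measured in single cells of the mouse aortic arch, and are followed from the cells that hold the chemokine transcripts to the cells that hold the receptor transcripts. Cell types were assigned to single cells from lists of marker genes that contain none of the 5.

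Cxcl9 and Cxcl10 are small secreted chemokines whose transcription is switched on by interferon gamma, and both bind Cxcr3, a receptor of effector T cells and natural killer cells. Cxcl16 is made as a transmembrane protein that also takes up oxidised lipoprotein, and is released from the cell surface by metalloproteases. Its receptor, Cxcr6, marks effector and tissue-resident T cells, including those of the atherosclerotic plaque.

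The study asked how loss of Oasl1, an interferon-induced gene of the oligoadenylate synthetase family, changes atherosclerosis on the Apoe-/- background. Live cells negative for the dye DAPI were sorted from pooled aortas (n = 6 mice, without saying whether per library or per group) and profiled by droplet 3′ RNA sequencing. Both groups were Apoe-/- mice kept on normal chow for 28 weeks. By the labels, 2 libraries were Oasl1+/+Apoe-/- (called Apoe-/- below) and 3 were Oasl1-/-Apoe-/- (called DKO-labelled below). The Oasl1-/- allele lacks the promoter and exon 2. Whether the libraries of a group came from separate pools of animals is not given in the sources used here, so the spread between libraries may be technical.

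Libraries held 3212 to 4338 cells and 16959976 to 19813039 unique molecular identifiers (UMIs, counted transcripts), and median UMIs per cell were 4495 to 5186.5. Of 18094 distinct cell barcodes, 165 occurred in more than 1 library. Oasl1 itself was counted 27 and 16 times under the Apoe-/- label but 299, 257 and 315 times under the DKO label. Read positions were not analysed here and 3′ libraries count the ends of transcripts, so these counts are not taken as a check of the labels, and all directions below refer to the labels. Macrophages made up 10.1% of cells in the Apoe-/- libraries (SD 0.491, n = 2) and 22.4% in the DKO-labelled libraries (SD 0.896, n = 3). T cells made up 1.99% (SD 0.205, n = 2) and 4.76% (SD 0.356, n = 3), and smooth muscle cells 69.3% and 49.5%. Neither these shares nor any share below can pass 0.05, because 5 libraries can be divided in only 10 ways and 0.1 is then the smallest p of an exact permutation test (two-sided).

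Cxcl9 and Cxcl10 lie next to each other on chromosome 5 of GRCm38 (mm10), 18558 bases apart and both on the minus strand. Cxcl9 (ENSMUSG00000029417) spans chr5:92321347-92328079 and Cxcl10 (ENSMUSG00000034855) spans chr5:92346638-92348889. Cxcl16 (ENSMUSG00000018920) lies at chr11:70453983-70459984 on the minus strand, Cxcr3 (ENSMUSG00000050232) at chrX:101731535-101734269 on the minus strand, and Cxcr6 (ENSMUSG00000048521) at chr9:123806475-123811760 on the plus strand. The annotation places Art3 over Cxcl10, Zmynd15 over Cxcl16 and Fyco1 over Cxcr6, each on the opposite strand. Whether the counting used strand is not given in the sources used here, so reads of the overlapped parts are assigned with that uncertainty.

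The 250 bases before the start of Cxcl9 and Cxcl10 are shown because these neighbouring genes were both called in macrophages while only Cxcl9 was called in those without Gpnmb, a foam cell gene. That last call had 2 UMIs on the Apoe-/- side and was lost when any DKO-labelled library was left out. The windows are RefSeq sequences of GRCm38.p6, read 5′ to 3′ on the minus strand, from chr5:92328080-92328329 for Cxcl9 and chr5:92348890-92349139 for Cxcl10. Capitals mark every match to 4 motifs searched on both strands, the interferon-stimulated response element GAAANNGAAA, the interferon gamma activated site TTCNNNGAA, the CCAAT box, and the NF-kappaB motif by name.
Cxcl9: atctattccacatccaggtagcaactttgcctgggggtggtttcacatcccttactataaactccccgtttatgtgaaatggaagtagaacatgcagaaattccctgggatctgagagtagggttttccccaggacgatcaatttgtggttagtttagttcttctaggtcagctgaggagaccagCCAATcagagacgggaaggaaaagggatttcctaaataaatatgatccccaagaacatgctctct
Cxcl10: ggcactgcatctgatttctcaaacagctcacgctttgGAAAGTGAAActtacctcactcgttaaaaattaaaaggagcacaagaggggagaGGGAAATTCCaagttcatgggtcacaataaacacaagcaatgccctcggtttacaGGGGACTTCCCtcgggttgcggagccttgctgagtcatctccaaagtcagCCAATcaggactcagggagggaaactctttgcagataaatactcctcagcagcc
In the Cxcl10 window the response element lies 213 to 204 bases before the start, NF-kappaB matches lie at 159 to 150 and, overlapping each other, at 104 to 95 and 103 to 94, and a CCAAT box lies at 54 to 50. In the Cxcl9 window a CCAAT box at 65 to 61 was the single match. The longest run the windows share is cagccaatcag, 11 bases that include this box. Of 27025 mouse promoter windows of the same length, 3.04% held the response element, 7.18% the activated site, 34.5% the CCAAT box and 7.01% the NF-kappaB motif. The windows of Cxcr3 and Cxcr6 held none of the 4, and a match is a description of letters only.

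All 5 genes were higher in the DKO-labelled aortic arches when each library was taken as a whole. All cells of such an arch library are called the whole aorta below. Levels here are mean UMIs per 10,000 UMIs of the cell (CP10K). Cxcl9 stood at 0.0225 and 0.0193 CP10K in the Apoe-/- libraries and at 0.170, 0.186 and 0.245 in the DKO-labelled libraries. Cxcl10 stood at 0.280 and 0.263 against 0.741, 0.748 and 0.819 CP10K. Cxcl16 stood at 1.67 and 1.45 against 4.01, 3.91 and 3.98 CP10K. For each of these ligands the groups did not overlap, and the DKO-labelled libraries lay close together.

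The receptors followed the same direction in the whole aorta. Cxcr3 stood at 0.0403 and 0.0330 against 0.116, 0.104 and 0.0889 CP10K. Cxcr6 stood at 0.117 and 0.0771 against 0.211, 0.284 and 0.262 CP10K. Again the lowest DKO-labelled library lay above the highest Apoe-/- library.

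Fitted with limma across genes on log2(mean CP10K + 0.05), which understates the changes of low genes, each member was called higher, where 41.1% of the 9836 genes tested were called in either direction, 20.5% were called higher, 20.6% lower, and 62.3% did not overlap. The log2 differences (DKO-labelled minus Apoe-/-) were 1.81 for Cxcl9 (SE 0.11, adjusted p = 9.1e-07), 1.35 for Cxcl10 (SE 0.06, adjusted p = 1.4e-07) and 1.32 for Cxcl16 (SE 0.06, adjusted p = 9.9e-08). They were 0.82 for Cxcr3 (SE 0.09, adjusted p = 5.5e-05) and 1.04 for Cxcr6 (SE 0.13, adjusted p = 9.6e-05), with a median of -0.03 over all genes tested. Cxcl9 and Cxcr3 averaged 0.0209 and 0.0367 CP10K in the Apoe-/- libraries and passed the filter of 0.05 CP10K only through the DKO-labelled libraries, so their calls give no support of their own. In such whole-aorta values, more cells of a type and more RNA per cell cannot be told apart. When each library was reweighted to the mean cell type shares of the 5 libraries, Cxcl9 (1.36), Cxcl10 (0.78) and Cxcl16 (0.40) still passed the limma test, while Cxcr3 fell to 0.19 (adjusted p = 0.20) and Cxcr6 to 0.19 (adjusted p = 0.28).

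**Figure D1:**
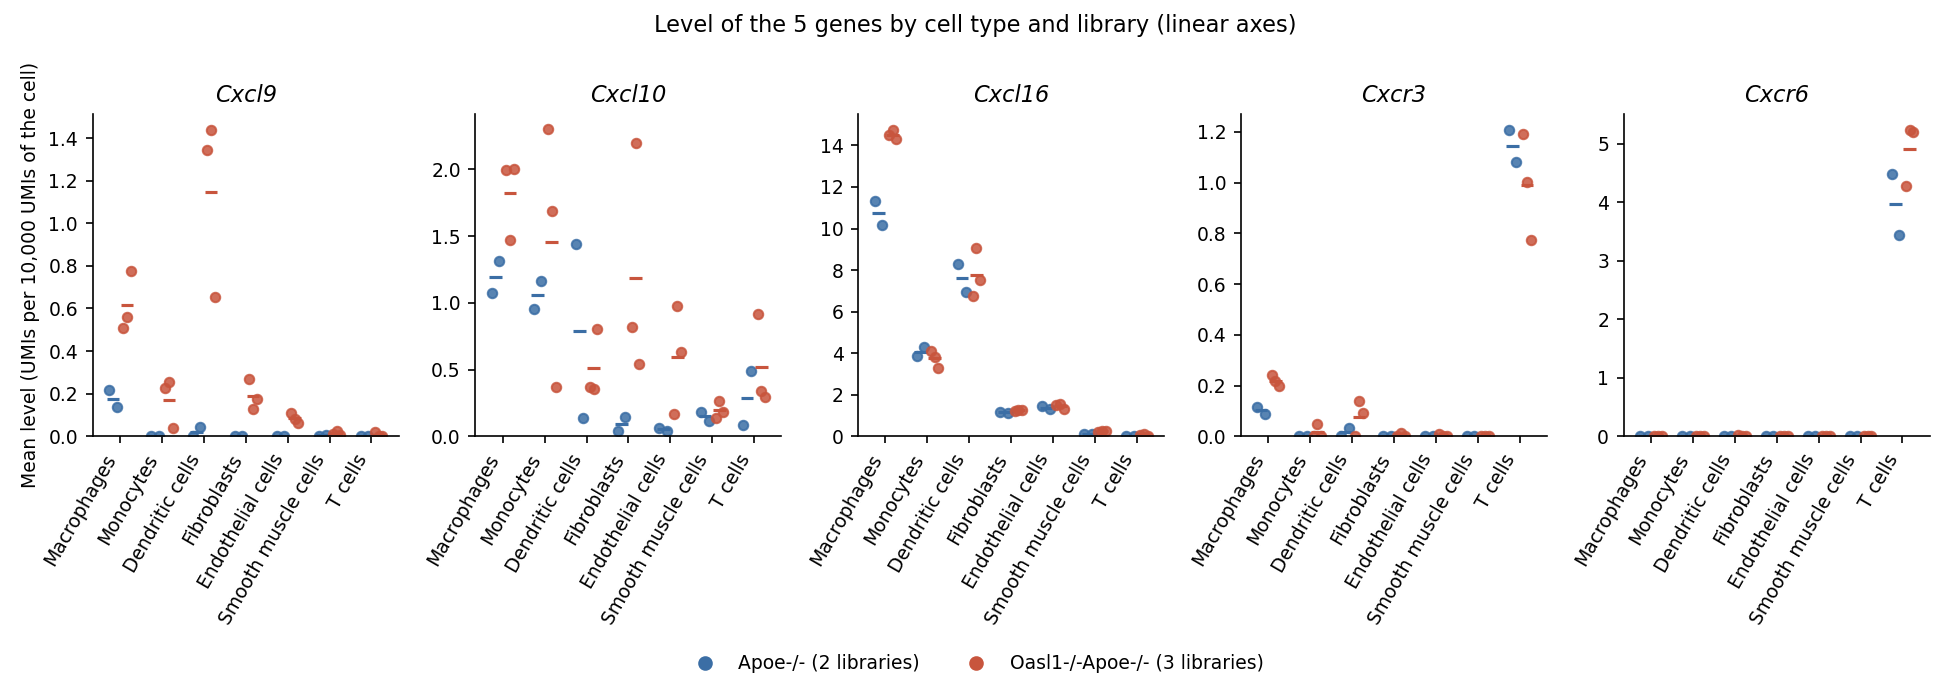
Mean level of each of the 5 genes per library and cell type, in CP10K, with a point for each of the 2 Apoe-/- and 3 DKO-labelled libraries. Cxcl16 is highest in macrophages, at 10.2 to 14.8 CP10K, and Cxcr6 stands out in T cells, at 3.45 to 5.24 CP10K.

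Macrophages were the main holders of all 3 chemokine transcripts in the DKO-labelled aortas. They held 92.5% of Cxcl9 UMIs in the Apoe-/- libraries and 66.5% in the DKO-labelled libraries, where cells without a type held 8.63%, dendritic cells 7.21%, fibroblasts 7.03%, smooth muscle cells 4.80% and endothelial cells 4.54%. Of Cxcl10 UMIs, macrophages held 40.9% and 51.1%, smooth muscle cells 44.6% and 13.3%, and cells without a type 3.97% and 14.6%. Of Cxcl16 UMIs, they held 73.8% and 82.2%. These sums follow the cell numbers given above as well as the level per cell.

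The order of the source cells was firm for Cxcl16 and not for the other ligands. Cxcl16 fell from macrophages to dendritic cells, monocytes, endothelial cells and fibroblasts, and each step held in 5 of 5 libraries. Mean Cxcl9 was highest in dendritic cells and then macrophages, but dendritic cells exceeded macrophages in only 2 of 5 libraries. Macrophages exceeded monocytes for Cxcl10 in 3 of 5 libraries, so neither pair of neighbours could be ordered. B cells had 0 UMIs of each ligand in 57 and 29 cells, which allows shares of up to 5.26% and 10.3% of cells with a UMI.

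Within macrophages all 4 members with enough UMIs to be tested were higher in the DKO-labelled libraries. Cxcl9 was at 0.216 and 0.138 CP10K against 0.510, 0.558 and 0.777, and Cxcl10 at 1.07 and 1.31 against 1.99, 1.47 and 2.0. Cxcl16 was at 11.3 and 10.2 CP10K against 14.5, 14.8 and 14.3. The groups did not overlap for any of the 3, and replicate 2 was the lowest DKO-labelled library for Cxcl10. The limma log2 differences were 1.55 for Cxcl9 (SE 0.18, adjusted p = 1.5e-05), 0.58 for Cxcl10 (SE 0.12, adjusted p = 0.0039) and 0.43 for Cxcl16 (SE 0.06, adjusted p = 7.2e-05). Of the 7910 genes tested in macrophages, 16.3% were called in either direction, 9.8% were called higher, 6.46% lower, and 44.2% did not overlap.

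The difference in Cxcl9 was carried by a small number of macrophages. Of 847 Apoe-/- macrophages, 9 carried Cxcl9 (1.06%, Wilson 95% interval 0.56 to 2.01) as did 155 of 2205 DKO-labelled macrophages (7.03%, 6.04 to 8.17). With cells thinned to 1000 UMIs these shares were 0.528% and 2.92%. In T cells, which are not a source of Cxcl9, they were 0% and 0.214% unthinned and 0% and 0.231% thinned. Median depth was alike in the macrophages, at 5330 and 5434 UMIs, and was 1720 and 1767.5 in the T cells. The 10 macrophages richest in Cxcl9 held 33.5% of its UMIs in the DKO-labelled libraries. Cxcl16 was spread over most macrophages, with a UMI in 87.1% (84.7 to 89.2) and 92.2% (91.1 to 93.3), or 61.1% and 69.8% when thinned. Its 10 richest cells held 4.62% and 2.07% of its UMIs. Shallow cells were unequally shared behind the median depths. A cluster led by Cd5l and Atp6v0d2, with a median of 1249 UMIs over all its cells, held 188 of 847 and 290 of 2205 macrophages. Of these cells, 52.7% and 60% had a Cxcl16 UMI. Cxcl10 lay between, with a UMI in 7.44% (5.86 to 9.40) and 16.7% (15.2 to 18.3).

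Cxcl9 and Cxcl10 were often found in the same macrophages. In the DKO-labelled libraries, 71 of the 155 macrophages with Cxcl9 also had a Cxcl10 UMI (45.8%), against 14.5% of those without Cxcl9. In the Apoe-/- libraries, where Cxcl9 was rare, the same count was 5 of 9, against 6.92%. The cells with Cxcl9 were somewhat deeper, with a median of 6092 UMIs against 5396.5 in the DKO-labelled libraries, and the part of depth in the shared detection was not tested.

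Macrophages were further divided by Gpnmb, a glycoprotein of lipid-laden foamy macrophages. Gpnmb was detected in 65.2% and 65.2% of macrophages in the Apoe-/- libraries and in 42.6%, 39.6% and 40.6% in the DKO-labelled libraries, so the mix of the 2 classes differed between the groups. The cut is a single UMI and marks a range, not a cell type.

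In Gpnmb- macrophages Cxcl9 and Cxcl16 rose. Cxcl9 was at 0 and 0.218 CP10K, from 2 UMIs in 1 cell, against 0.717, 0.777 and 1.02. Cxcl16 was at 12.8 and 13.1 against 16.4, 16.6 and 16.1 CP10K. The limma log2 differences were 2.92 for Cxcl9 (adjusted p = 0.0076) and 0.34 for Cxcl16 (adjusted p = 0.0115), where 5.13% of 7960 genes were called in either direction, 3.29% were called higher and 36.7% did not overlap. Both calls were lost when DKO-labelled replicate 1, 2 or 3 was left out, with adjusted p of 0.050, 0.060 and 0.075 for Cxcl9 and of 0.095, 0.114 and 0.071 for Cxcl16. Cxcl10 overlapped in these cells, at 1.82 and 2.99 against 2.69, 1.88 and 2.94 CP10K, and its difference of 0.07 did not pass (95% interval -0.40 to 0.55).

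In Gpnmb+ macrophages only Cxcl16 passed the limma test among the 4 members tested. It was at 10.6 and 8.63 CP10K against 11.9, 11.9 and 11.7, a log2 difference of 0.31 (adjusted p = 0.0175, with 8.07% of 7761 genes called in either direction, 4.92% higher, and 35.9% without overlap). The call was lost without Apoe-/- replicate 2 (0.16, adjusted p = 0.19) and without DKO-labelled replicate 1, 2 or 3 (adjusted p of 0.083, 0.091 and 0.070). Cxcl9 overlapped, at 0.331 and 0.0953 against 0.232, 0.223 and 0.421 CP10K, and did not pass (0.49, adjusted p = 0.41). It passed without Apoe-/- replicate 1 (1.19, adjusted p = 0.021) and changed sign without Apoe-/- replicate 2 (-0.20). Cxcl10, at 0.669 and 0.417 against 1.05, 0.838 and 0.633 CP10K, did not pass either (0.59, adjusted p = 0.064), but passed without Apoe-/- replicate 1 (0.90, adjusted p = 0.015) or DKO-labelled replicate 3 (0.77, adjusted p = 0.033). With the shares of Gpnmb+ and Gpnmb- macrophages made equal in all libraries, the difference over all macrophages was 1.51 for Cxcl9 and 0.32 for Cxcl16, which still passed, and 0.18 for Cxcl10 (adjusted p = 0.48), which did not.

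**Figure D2:**
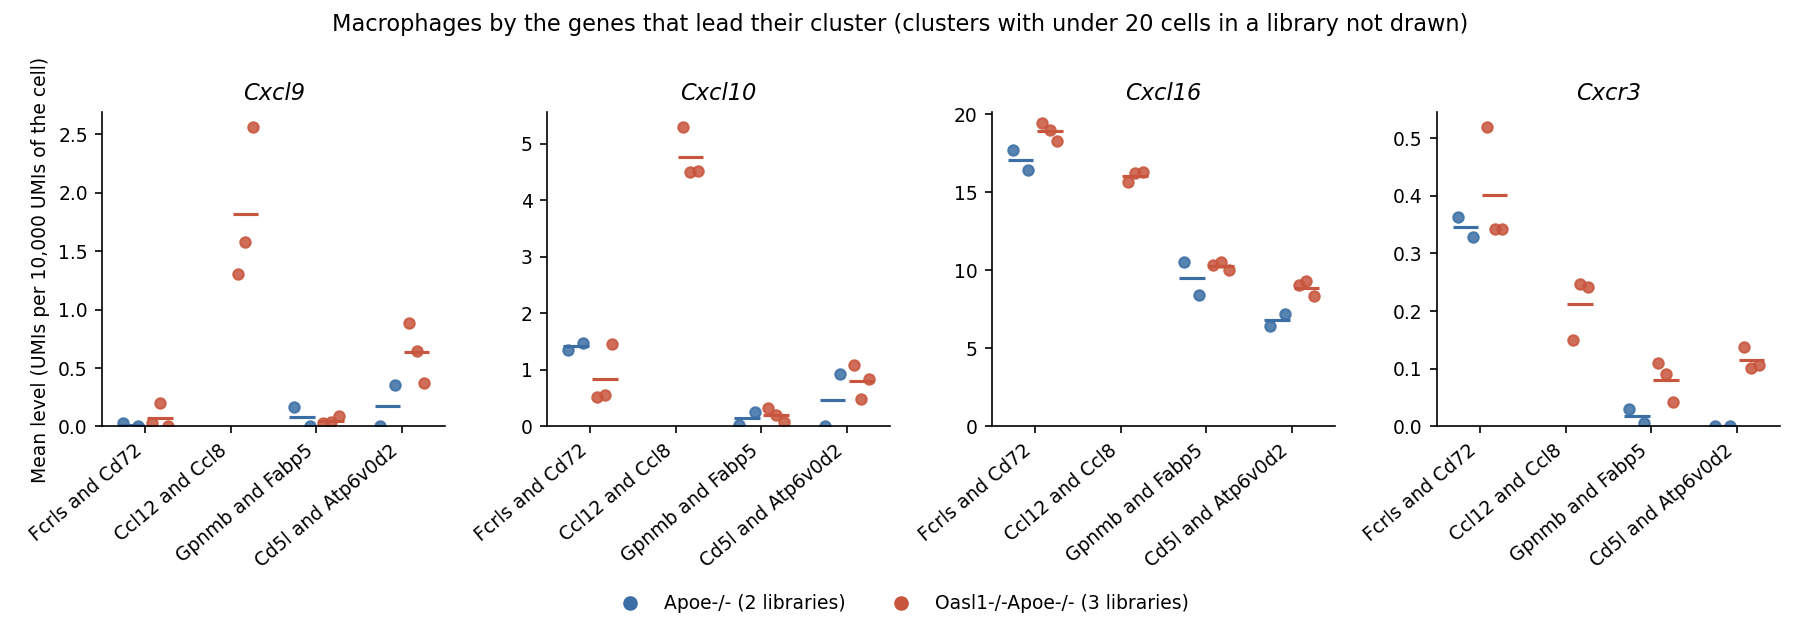
Mean level of Cxcl9, Cxcl10, Cxcl16 and Cxcr3 in CP10K per library in macrophage clusters that were made without these genes, each named by its leading genes, with a point per library of at least 20 cells. The cluster led by Ccl12 and Ccl8 shows the highest Cxcl9 and Cxcl10, and the cluster led by Fcrls and Cd72 the highest Cxcl16 and Cxcr3.

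Clusters made without the 5 genes showed where each was found among macrophages, which is given as a description. In the cluster led by the monocyte-attracting chemokine genes Ccl12, Ccl8 and Ccl7, the DKO-labelled libraries had Cxcl9 at 1.31, 1.58 and 2.56 CP10K and Cxcl10 at 5.29, 4.5 and 4.51 CP10K. Both lay well above their mean over all macrophages. This cluster held 12 Apoe-/- and 571 DKO-labelled macrophages, and with them 35 of 62 and 634 of 747 macrophage UMIs of Cxcl9, and 165 of 391 and 1600 of 2301 of Cxcl10. The macrophage differences in Cxcl9 and Cxcl10 given above are thus between groups whose macrophages were divided differently among the clusters. The cluster led by Gpnmb and Fabp5 held 381 Apoe-/- and 508 DKO-labelled macrophages. Fcrls and Cd72 led a cluster of 212 and 660, and Cd5l and Atp6v0d2 a cluster of 188 and 290. Both groups were thus well represented in these clusters, unlike in the one led by Ccl12 and Ccl8. Over the 12 Apoe-/- cells of the cluster led by Ccl12 the mean was 6.95 CP10K for Cxcl9 and 38.2 for Cxcl10, above the 1.83 and 4.78 of the DKO-labelled cells. Its leading genes themselves differed between the groups, so its size is named and not compared.

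In the cluster led by Fcrls and Cd72, Cxcl16 reached 17.7 and 16.5 CP10K in the Apoe-/- libraries and 19.5, 19.0 and 18.3 in the DKO-labelled libraries. Cxcl10 there went the other way in part, at 1.35 and 1.48 against 0.527, 0.549 and 1.47 CP10K. In the foamy cluster led by Gpnmb and Fabp5, Cxcl16 was at 10.6 and 8.45 against 10.4, 10.5 and 10.0 CP10K, and Cxcl9 at 0.168 and 0 against 0.0279, 0.0349 and 0.0875 CP10K. The groups overlapped for Cxcl10 in the first cluster and for Cxcl9 and Cxcl16 in the foamy one, unlike in macrophages as a whole.

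Dendritic cells held Cxcl9 almost exclusively in the DKO-labelled libraries. It was at 0 and 0.0435 CP10K in the Apoe-/- libraries, from 1 UMI, and at 1.35, 1.44 and 0.653 in the DKO-labelled libraries. A UMI was found in 1 of 85 cells (1.18%, Wilson 95% interval 0.208 to 6.37) and in 15 of 146 cells (10.3%, 6.33 to 16.3), and 76 of the 81 UMIs lay in 10 cells. Thinned to 1000 UMIs the shares were 0% and 4.14%, and median depth was 4359 and 5968 UMIs. The mix of dendritic cells differed, with 2 and 31 cells marked by Clec9a or Xcr1, which held 8 of the 81 UMIs. Cells with both Ccr7 and Fscn1, 17 and 22 in number, held 33, those marked by Cd209a 13, and the remaining dendritic cells 27. The part of this mix in the Cxcl9 values was not tested. The limma log2 difference was 4.05 (SE 0.47, adjusted p = 0.00011), where 0.984% of 7518 genes were called in either direction, 0.732% were called higher and 27.5% did not overlap, and it was the single member called of 4 tested. This value rests on the pseudocount, since 1 UMI stands on the Apoe-/- side, and Cxcl9 passed the filter on low values only through the DKO-labelled group, so the call gives no support of its own.

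Cxcl10 and Cxcl16 did not separate the groups in dendritic cells. Cxcl10 was at 1.44 and 0.134 CP10K against 0.372, 0.351 and 0.807, with a difference of 0.00 (95% interval -1.26 to 1.27). Cxcl16 was at 8.30 and 6.94 against 6.76, 9.07 and 7.53 CP10K, with a difference of 0.03 (95% interval -0.33 to 0.38). In mature dendritic cells, which had both Fscn1 and the lymph node homing receptor gene Ccr7, Cxcl16 was at 17.3 and 14.1 against 16.9, 27.0 and 15.7 CP10K, from 17 and 22 cells. The 10 macrophage markers summed to 2.74 and 2.59 against 3.95, 2.91 and 3.26 CP10K in the dendritic cells, with 1 of 10 at 0, and the 9 dendritic markers summed to 0.922 and 1.06 against 1.46, 1.40 and 1.38 CP10K in the macrophages, with none at 0. The part of either in the Cxcl9 values was not tested.

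The Cxcl9 difference was larger in dendritic cells than in macrophages by 2.50 on the log2 scale, but this did not pass (limma adjusted p = 0.46). In that comparison 0 of 6817 genes passed and 688 had an unadjusted p under 0.05. Monocytes, blood-derived precursors marked by Ly6c2, gave no member call of 3 tested (1.28% of 7798 genes called in either direction, 0.898% higher, and 28% without overlap). Cxcl9 was at 0 and 0 against 0.225, 0.253 and 0.0370 CP10K in monocytes, and passed the filter only through the DKO-labelled group. With the UMIs of that group pooled it was at 0.145 CP10K, 1.84-fold the Apoe-/- floor of 0.0786 for 3 counts. The mean of DKO-labelled replicate 3 lay below this floor. Monocyte Cxcl10 spanned 0.368 to 2.30 CP10K in the DKO-labelled libraries, on both sides of the Apoe-/- values of 0.955 and 1.16. Cxcl16 was at 3.87 and 4.28 against 4.10, 3.82 and 3.31 CP10K there, and its groups overlapped too.

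Fibroblasts and endothelial cells each gave a call for higher Cxcl10 in the DKO-labelled libraries and none for Cxcl16, and Cxcl9 is given there by its values alone. In fibroblasts Cxcl10 was at 0.0381 and 0.145 CP10K against 0.818, 2.19 and 0.539, a log2 difference of 3.0 (SE 0.45, limma adjusted p = 0.00079). Fibroblast Cxcl9 was at 0 and 0 against 0.268, 0.128 and 0.176 CP10K. With the UMIs of the DKO-labelled group pooled it was at 0.267 CP10K, 6.89-fold the Apoe-/- floor of 0.0387 for 3 counts. Cxcl10 and Cxcl9 were both non-overlapping in fibroblasts, as were 31% of the 9427 genes tested. Of these genes, 2.65% were called in either direction and 1.65% higher. Cxcl9 passed the filter on low values only through the group where it was high, so its test had to point that way and no p is given.

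In endothelial cells Cxcl10 was at 0.0603 and 0.0421 CP10K against 0.168, 0.973 and 0.632, a log2 difference of 2.41 (SE 0.34, limma adjusted p = 3.4e-07). Of 9430 genes tested, 2.62% were called in either direction, 1.86% were called higher and 26.3% did not overlap. Endothelial Cxcl9 was at 0 and 0 against 0.107, 0.0814 and 0.0633 CP10K. With the UMIs of the DKO-labelled group pooled it was at 0.182 CP10K, 14.3-fold the Apoe-/- floor of 0.0128 for 3 counts. Of these 51 UMIs, 28 lay in 1 cell. Here too Cxcl9 passed the filter only through the high group and no p is given. It was called in none of the fits that left out a library, since without an Apoe-/- library it did not pass and without a DKO-labelled library it lay below the filter. Cxcl16 was at 1.45 and 1.31 against 1.5, 1.53 and 1.30 CP10K in endothelial cells and at 1.18 and 1.13 against 1.20, 1.28 and 1.26 in fibroblasts. Its differences of 0.06 (95% interval -0.23 to 0.36) and 0.10 (95% interval -0.28 to 0.49) did not pass.

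These stromal values rested on few cells. By cluster, most DKO-labelled UMIs of endothelial cells lay in the one led by Ccl21a and Nts, with 302 of 331 for Cxcl10 and 46 of 51 for Cxcl9. It held 31 Apoe-/- and 86 DKO-labelled endothelial cells, and its leading genes also included Gpihbp1, Emcn and Fabp4. Cells typed as lymphatic endothelial were not among those counted. There were 25 of them, all DKO-labelled, with 0 UMIs of Cxcl10 and 1 of Cxcl9. In the larger cluster led by Ptprb and Gkn3, with 386 and 398 cells, Cxcl10 overlapped, at 0.0941 and 0.0459 against 0.0628, 0.0882 and 0.217 CP10K. The mix of endothelial clusters thus differed between the groups. In endothelial cells a Cxcl10 UMI was found in 1.53% (Wilson 95% interval 0.859 to 2.73) and 4.69% (3.30 to 6.61) of cells, and 221 of the 239 UMIs of DKO-labelled replicate 3 lay in 1 cell. In fibroblasts the shares were 3.82% (1.76 to 8.09) and 12.2% (9.56 to 15.5), and 68.9% of the DKO-labelled UMIs lay in 10 of 466 cells. In T cells, which are not a main source, the share was 1.80% and 4.27%. Thinned to 1000 UMIs, the endothelial shares of 0.714% and 1.92% lay below the 1.88% and 2.77% of T cells, so by share endothelial Cxcl10 was not told apart from background, and its level rests on a few cells with many UMIs. Cxcl9 was found in 14 of 466 fibroblasts and 13 of 640 endothelial cells of the DKO-labelled libraries, and in 0 of 157 and 0 of 717 cells of the Apoe-/- libraries, which allow shares of up to 1.91% and 0.418%. Median depth was 3903 and 5392 UMIs in fibroblasts and 2809 and 3456 in endothelial cells. The 10 macrophage markers summed to 0.502 and 0.949 against 1.67, 1.53 and 1.08 CP10K in endothelial cells and to 1.71 and 1.11 against 1.80, 1.33 and 1.67 in fibroblasts, with none at 0. The 8 monocyte markers summed to 7.40 and 5.90 against 15, 14.1 and 12.4 CP10K in fibroblasts, without overlap and with 1 of 8 at 0. Not all of these markers were particular to monocytes. Vcan averaged 0.517 CP10K in monocytes and 0.785 in all other cells, and Msrb1 10.3 and 3.94. The 8 fibroblast markers summed to 8.16 and 8.04 against 10.1, 11.5 and 12.5 CP10K in endothelial cells, also without overlap and with none at 0. Of single genes, 31% in fibroblasts and 26.3% in endothelial cells did not overlap. The part of these transcripts in the stromal values was not tested.

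Smooth muscle cells, the most numerous type, had low levels of each ligand. Cxcl16 was at 0.127 and 0.0934 CP10K against 0.219, 0.238 and 0.233, a log2 difference of 0.81 (SE 0.10, limma adjusted p = 2.7e-05). Of 9109 genes tested, 9.45% were called in either direction, 6.61% were called higher and 39.4% did not overlap. A Cxcl16 UMI was found in 3.56% and 7.44% of smooth muscle cells, against 0% and 1.71% of T cells. When thinned, the shares were 1.09% and 1.88% of smooth muscle cells against 0% and 0.693% of T cells. Much of this Cxcl16 lay in few cells outside the contractile clusters. The cluster led by Cd5l and Atp6v0d2, with the macrophage genes Gpnmb and Fabp5 among its leaders, held 136 of the 408 Apoe-/- UMIs in 32 cells and 248 of the 775 DKO-labelled UMIs in 51 cells. The cluster led by Saa3 and Lum, with 126 and 376 cells, held 84 and 249 UMIs, and Cxcl16 within it was at 1.0 and 0.982 against 0.791, 0.654 and 0.874 CP10K, lower in the DKO-labelled libraries. The mix of clusters differed between the groups, and with cells named by cluster the difference was 0.33 and did not pass (limma adjusted p = 0.066). Smooth muscle Cxcl10 overlapped, at 0.183 and 0.117 against 0.140, 0.264 and 0.180 CP10K, and did not pass (0.28, adjusted p = 0.33). A UMI was found in 2.69% and 4.35% of cells, or 1.10% and 1.72% when thinned, below the thinned shares of T cells, and 1.35% and 1.97% of cells had at least 2 UMIs, at median depths of 4816 and 5169 UMIs. The part of free RNA in these UMIs was not tested. The Cxcl16 difference in macrophages was smaller than in smooth muscle cells by 0.38 on the log2 scale, which did not pass (limma, adjusted p = 0.11, 3.93% of genes called).

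T cells were the main holders of Cxcr6 transcripts, and the level per T cell gave no call. T cells were defined by genes of the T cell receptor and its signalling complex. They held 78.6% of Cxcr6 UMIs in the Apoe-/- libraries and 91.0% in the DKO-labelled libraries, or 97.5% and 97.9% when cells were named by cluster. T cells exceeded every other type in 5 of 5 libraries, and the next in order were erythroid cells, of which 2 of 50 and 1 of 17 had a UMI. Cxcr6 was at 4.48 and 3.45 CP10K against 4.27, 5.24 and 5.20, and the groups overlapped. The limma log2 difference of 0.31 did not pass (95% interval -0.03 to 0.65, adjusted p = 0.46), where 1.61% of 8027 genes were called in either direction and 1.16% higher. A UMI was found in 43.7% (Wilson 95% interval 36.4 to 51.3) and 44.2% (39.8 to 48.8) of T cells, against 0.103% and 0.144% of smooth muscle cells.

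Cxcr3 in T cells did not pass either, and neither receptor was called there. It was at 1.21 and 1.08 CP10K against 1.19, 1.0 and 0.773, with replicate 3 the lowest DKO-labelled library. The limma log2 difference was -0.22 (95% interval -0.78 to 0.34, adjusted p = 0.82). A UMI was found in 18.0% (12.9 to 24.5) and 16.0% (13 to 19.6) of T cells, or 11.2% and 8.31% when thinned to 1000 UMIs, at median depths of 1720 and 1767.5 UMIs. Intervals on shares cover counting error only. T cells themselves numbered 87 and 80 against 154, 166 and 148.

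**Figure D3:**
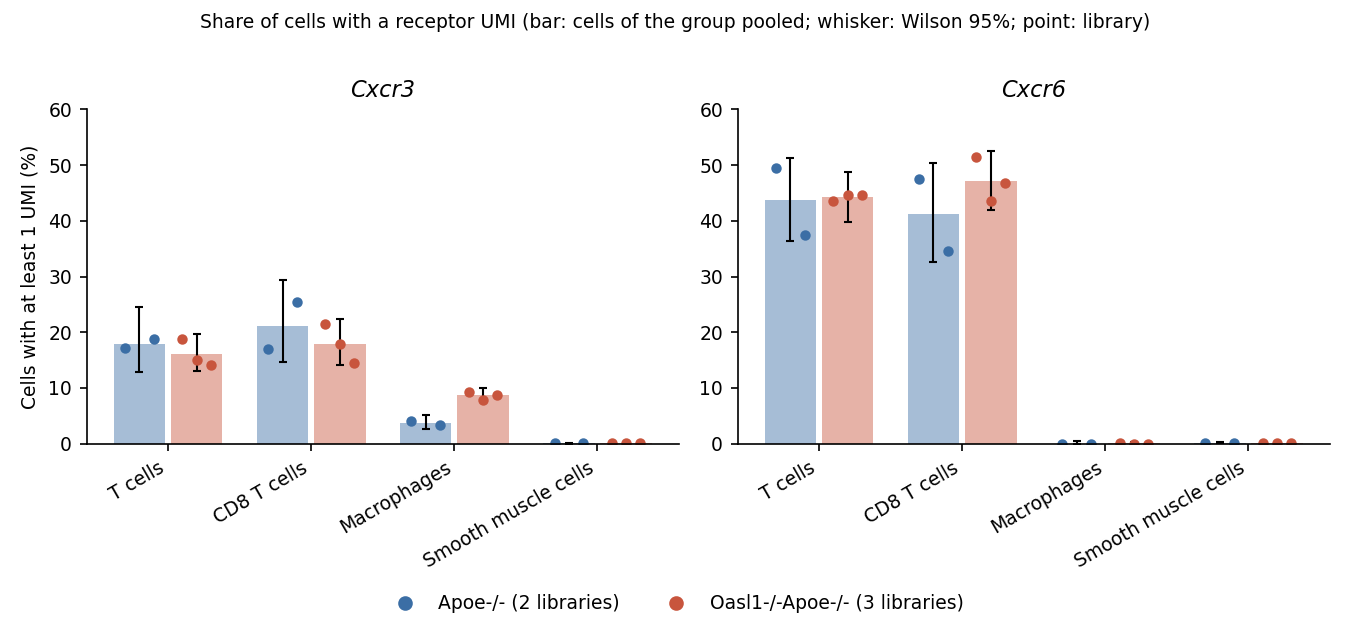
Percent of cells with at least 1 UMI of Cxcr3 or Cxcr6 per group and cell type, with Wilson 95% intervals as bars and a point per library. For Cxcr3, macrophages stand at 3.66% and 8.66% and T cells at 18.0% and 16.0%, and for Cxcr6 the T cell shares of 43.7% and 44.2% stand far above those of other types.

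Among T cells, those with Cd8a or Cd8b1 (114 and 335 cells) had Cxcr6 at 3.93 and 2.93 CP10K against 4.85, 5.05 and 5.23. Here the groups did not overlap, as for 28% of the 7957 genes tested, but the limma log2 difference of 0.56 did not pass (95% interval 0.20 to 0.92, adjusted p = 0.14, with 1.43% of genes called in either direction and 1.06% higher). Without Apoe-/- replicate 1 it passed, at 0.77 (adjusted p = 0.039). Cxcr3 in the same cells was at 1.10 and 1.41 against 1.15, 1.18 and 0.711 CP10K and did not pass (-0.32, adjusted p = 0.72). The differences in CD8 and the remaining T cells were not told apart for either receptor (limma, adjusted p = 0.81 for Cxcr6 and 0.92 for Cxcr3), where 0 of 7037 genes passed and 552 had an unadjusted p under 0.05.

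Gamma delta T cells, defined by Trdc or Tcrg-C1, constant region genes of the alternative receptor, were few but rich in Cxcr6. It was at 18.5 and 29.0 CP10K, from 2 and 1 cells, against 11.0, 12.5 and 16.0, from 6, 15 and 4 cells. No Cxcr3 UMI was found in these 28 cells, and the Apoe-/- side is too small to compare. Of the 30 T cells with Cd4, 6 of 20 in the DKO-labelled libraries had Cxcr6 and 5 of 20 had Cxcr3. In CD8 T cells of the DKO-labelled libraries, Cxcr6 was found in 43.3% of cells with Cxcr3 and 48.0% of cells without it, and the Apoe-/- counts were 12 of 24 cells (38.9% of those without). The 37 natural killer cells had 4 UMIs of Cxcr3 and 3 of Cxcr6, too few to compare.

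Macrophages were the larger holder of Cxcr3 transcripts by count. They held 48.3% of its UMIs in the Apoe-/- libraries and 69.6% in the DKO-labelled libraries, against 40.2% and 24.3% in T cells, although per cell T cells were higher in 5 of 5 libraries. In macrophages Cxcr3 was at 0.117 and 0.0885 CP10K against 0.242, 0.218 and 0.199, and the groups did not overlap, as for 44.2% of the 7910 genes tested. The limma log2 difference was 0.82 (SE 0.17, adjusted p = 0.0031), where 16.3% of genes were called in either direction and 9.8% higher. A UMI was found in 3.66% (Wilson 95% interval 2.59 to 5.15) and 8.66% (7.56 to 9.91) of macrophages, or 1.06% and 2.20% when thinned. In smooth muscle cells, at similar depth, the shares were 0.0514% and 0.0615%, or 0% and 0% when thinned. The shares of macrophages lay above this background, and their difference had an adjusted exact permutation p of 0.214 over the 60 shares tested.

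Few macrophages, with or without Cxcr3, carried other T cell transcripts. A UMI of any of 9 T cell markers was found in 0 of 31 Apoe-/- and 2 of 191 DKO-labelled macrophages with Cxcr3. In macrophages without Cxcr3 the shares were 1.47% and 2.04%. Macrophages had 42 and 252 Cxcr3 UMIs but 0 and 1 Cxcr6 UMIs, while T cells had 35 and 88 of Cxcr3 but 125 and 473 of Cxcr6. The 9 T cell markers summed to 0.0852 and 0.0250 CP10K in Apoe-/- macrophages and 0.0542, 0.0562 and 0.0591 in DKO-labelled macrophages, with 1 of 9 at 0. Without the macrophages that had any T cell marker UMI, the difference was 0.82 (limma adjusted p = 0.0029). This kept 835 of 847 and 2162 of 2205 macrophages, and 31 of 31 and 189 of 191 with Cxcr3. The value could therefore hardly change, and nothing is concluded from it.

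By cluster, Cxcr3 was highest in the macrophages led by Fcrls and Cd72, at 0.362 and 0.329 CP10K against 0.519, 0.342 and 0.342. It was lower in the foamy cluster led by Gpnmb and Fabp5, at 0.0308 and 0.00629 against 0.110, 0.0905 and 0.0428 CP10K. In Gpnmb- macrophages it was at 0.204 and 0.175 against 0.357, 0.318 and 0.281 CP10K, and in Gpnmb+ macrophages at 0.0707 and 0.0421 against 0.0862, 0.0648 and 0.0779. Neither class passed alone (adjusted p = 0.15 and 0.59), although Gpnmb- macrophages did without Apoe-/- replicate 1 (0.70, adjusted p = 0.031). With the Gpnmb classes at equal shares the macrophage difference was 0.52 (adjusted p = 0.082), below that of the cells as found. In dendritic cells, Cxcr3 UMIs in the DKO-labelled libraries were mostly in type 1 conventional cells marked by Clec9a or Xcr1, where 5 of 31 cells had one.

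Of 29 other chemokine genes, 27 were in the table and 20 could be tested in the whole aorta, and 20 of these rose (median log2 difference 1.07, against -0.03 over all genes, of which 20.5% rose), 4 of them through the DKO-labelled libraries alone as their Apoe-/- mean lay below the filter. The largest were the lymphoid chemokine Ccl21a, listed at 0 in both Apoe-/- libraries and at 0.650, 0.328 and 0.827 CP10K in the others, and the monocyte chemoattractants Ccl8 (2.94) and Ccl7 (2.67). Ccl21a also led the genes outside the marker list in cells typed as lymphatic endothelial, which numbered 0 and 0 against 9, 7 and 9. The part of these cell numbers in the Ccl21a values was not tested. In macrophages 7 of 16 rose and 1 fell, where 9.8% and 6.46% of all genes did (median 0.21, against 0.04). The rises were led by Ccl8 (2.08), Ccl7 (2.0) and the B cell chemokine Cxcl13 (1.97, below the filter in the Apoe-/- libraries). The platelet factor gene Pf4, itself a marker by which the macrophages were assigned, fell by 0.52. In T cells 3 of 9 rose, where 1.16% of all genes did, the inflammatory chemokines Ccl3 (1.36), Ccl4 (1.05) and Ccl5 (0.37). The list was chosen with earlier results of these data known, and its counts are descriptions.

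Of 21 other chemokine receptors, 8 could be tested in the whole aorta and 6 rose, where 20.5% of all genes did (median 0.55). They included Cx3cr1 (0.99), the fractalkine receptor, and Ccr2 (0.87), which draws monocytes from blood. In macrophages 3 of 6 tested rose, where 9.8% of all genes did, Ccr2 (0.93) and Cx3cr1 (0.39) among them, and Ccrl2, an atypical receptor, fell by 0.24. In T cells 0 of 9 passed, with a median of 0.08, equal to that of all genes tested there.

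From a list of interferon gamma signalling and related genes, 12 of 14 tested rose in the whole aorta (median 0.40). Of all genes 20.5% rose there, and 2 of the 12 lay below the filter in the Apoe-/- libraries. The transcription factor gene Irf8 was at 1.21 and Ifng itself at 1.11. In macrophages 4 of 13 rose, against 9.8% of all genes, among them the class II transactivator Ciita (0.92), Irf1 (0.67) and Irf8 (0.42). Ifng per T cell was at 2.50 and 2.18 CP10K against 4.26, 3.65 and 2.56, without overlap, as for 27.5% of genes there, and did not pass (adjusted p = 0.24).

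Of the enzymes that process these chemokines, Adam17, a sheddase of transmembrane proteins, rose in the whole aorta by 0.39, 1 of 2 tested, and none of 2 passed in macrophages or of 3 in T cells. Among genes of type 1 T cell identity and tissue residency, 9 of 13 tested in the whole aorta rose and 2 fell, where 20.5% and 20.6% of all genes did (median 0.77), and 1 of the 9 lay below the filter in the Apoe-/- libraries. Nkg7 (1.43) and Gzmk (1.27), genes of cytotoxic granules, and the early activation gene Cd69 (1.13) rose most, and the integrin gene Itga1 and the transcription factor gene Klf2 fell by 0.57 and 0.44. Within T cells 4 of 18 rose, where 1.16% of all genes did (median 0.32, against 0.08), the transcription factors Eomes (1.21) and Bhlhe40 (0.67) and the granule genes Gzmk (0.63) and Nkg7 (0.47). In macrophages Cd69 (1.35) and Klf2 (0.64) rose and Bhlhe40 fell by 0.49, of 6 tested, in cells that are not T cells.

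Across 43 profiles, each the mean of 1 of 11 cell types in 1 of 5 libraries, the genes with the most similar pattern were ranked by Pearson correlation among 9755 genes. They were Batf3 (r = 0.766), Ifi211 (0.754) and Gatm (0.753) for Cxcl9 and Ubtd1 (0.716), Hmga1 (0.712) and Xdh (0.707) for Cxcl10. For Cxcl16 they were Dab2 (0.904), Grn (0.894) and P2ry6 (0.889). Cxcr3 was followed most closely by Cd5 (0.947), Cd4 (0.933) and Gna15 (0.924), and Cxcr6 by Tcrg-C2 (0.990), Pdcd1 (0.988) and Zap70 (0.986). Among the members, Cxcr3 and Cxcr6 were the closest pair (0.831), ahead of Cxcl9 with Cxcl16 (0.689) and Cxcl9 with Cxcl10 (0.50). The profiles of a library share its depth and free RNA, and these values are descriptions.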

How the data were processed

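Single cells of the aortic arch were measured by 10x Genomics 3′ sequencing in 2 Apoe-/- and 3 DKO-labelled libraries. Per the labels and methods, the authors mapped reads to mm10 with Cell Ranger 3.1.0, filtered cells and normalized them with Seurat 4.0.3, and removed doublets, so no doublet caller was run. The deposited values were natural log values, made by the authors as the log of 1 plus UMIs per 10000 UMIs of the cell. Undoing the log returned whole UMIs for 100% of values at a tolerance of 0.01. The table held 18260 cells with at least 201 genes and under 10% mitochondrial UMIs, in 5 libraries of 16959976 to 19813039 UMIs.

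Each cell was given the type with the highest mean marker score (log values capped at the 0.9 quantile), if at least 3 of its markers were detected and it led by 0.05, which left 925 cells (5.07%) without a type. Only the markers were fixed, and the scoring rule was set after the data were seen. Because names were rebuilt, values can depart from those of the study. Leiden clusters of the 2000 most variable genes without the 5 members (12 components, 20 neighbours, resolution 1) served as an alternative.

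The library was the replicate. Cell types needed 20 or more cells in each library, and their mean CP10K was tested as log2(mean CP10K + 0.05) with limma 3.58.1 (trend) in R 4.3.3, for genes averaging at least 0.05 CP10K, with Benjamini-Hochberg adjustment over all genes tested and a threshold of 0.05. Shares were compared by exact permutation and thinned to 1000 UMIs, which left out 556 cells. Floors are 3 counts over the pooled UMIs or cells of a group. Intervals and floors cover counting error only. The limma fits were tested on simulated data. The remaining steps used Python 3.11.15 with scipy 1.17.1, scikit-learn 1.9.0 and leidenalg 0.10.2. Genes were matched to GENCODE mouse release 21, and promoters to RefSeq (4 of 5 members found, without Cxcl16). Pathway genes are named by one rule, the 3 largest changes per direction among those past the threshold in each list. Irf8 in macrophages and Ifng in T cells were added after their values were seen, and some genes that the rule selects are not reported here. The 5 members and all lists were chosen with earlier results of these data known. Alternatives tried were other pseudocounts, no filter, summed UMIs, limma-voom, median centring, clusters, a stricter gate, reweighting, a replicate block and leaving out each library.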

Additional observations from a re-analysis of the deposited data

How the results depend on the processing

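The alternatives covered 485 values of the 5 genes, of which 426 kept their direction and their side of the threshold, 24 lost a call, 9 gained one and 26 changed sign. In the whole aorta and in macrophages Cxcl9 and Cxcl16 passed under every alternative, with log2 differences of 0.85 to 3.66 and 0.40 to 1.42, and of 1.11 to 2.17 and 0.32 to 0.51. Whole-aorta Cxcl9 passed the filter of 0.05 CP10K only through the DKO-labelled libraries, so its passes give no support of their own. Reweighting to mean cell type shares took Cxcr3 to 0.19 and Cxcr6 to 0.19 in the whole aorta, with 1188 genes called in place of 4045. Making the Gpnmb classes equal, an alternative chosen after seeing the data as was leaving out macrophages with T cell markers, took Cxcl10 in macrophages to 0.18, with 771 genes called in place of 1286. Summed counts with limma-voom ended the calls of Cxcl10 in endothelial cells (adjusted p = 0.15) and fibroblasts (0.27) and of Cxcl9 in dendritic cells (0.10). With Leiden clusters Cxcl16 in smooth muscle cells did not pass (0.33, adjusted p = 0.066), nor did Cxcl16 in Gpnmb- macrophages (0.17, adjusted p = 0.15). Summed UMIs and voom gave a call for Cxcl10 in Gpnmb+ macrophages (1.08 and 1.17).

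The values that changed sign were none of them called. For Cxcl10 in dendritic cells they were -0.12 with a pseudocount of 0.2, -0.45 with summed UMIs, -0.050 with voom, -0.081 after median centring and -1.50 to 1.51 with a library left out. Cxcl10 in monocytes became -0.039 with summed UMIs, -0.013 with voom, -0.43 with the stricter gate, and -0.37 to 0.87 with a library left out. For Cxcl10 in Gpnmb- macrophages the values were -0.12 with Leiden clusters and -0.28 to 0.42 with a library left out. Cxcl16 in dendritic cells became -0.017 with summed UMIs, -0.022 with voom, -0.059 after median centring and -0.10 to 0.15 with a library left out, and in endothelial cells it spanned -0.0072 to 0.14. Cxcl16 in monocytes was 0.26 with Leiden clusters and 0.013 with the stricter gate, and the difference between macrophages and smooth muscle cells 0.049 with Leiden clusters. With a library left out Cxcl9 in Gpnmb+ macrophages spanned -0.20 to 1.19, and the Cxcr3 difference between CD8 and remaining T cells -1.76 to 0.49. The cause of these changes was not tested.

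Genes called in T cells numbered 129, 78 with a pseudocount of 0.01, and 31 to 236 with a library left out. In macrophages that range was 790 to 1706. Over all alternatives the counts ran from 11 to 195 in CD8 T cells (114 as reported), 395 to 782 in Gpnmb+ macrophages (626), 161 to 1784 in Gpnmb- macrophages (408), 9 to 113 in dendritic cells (74), 172 to 407 in endothelial cells (247), 110 to 393 in fibroblasts (250), 2 to 230 in monocytes (100) and 451 to 1159 in smooth muscle cells (861).

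Libraries of the groups share replicate numbers but nothing in the labels pairs them, and the deviations of same-numbered libraries correlated at 0.0148 and 0.0429 in the whole aorta. With the replicate number as a block, which leaves DKO-labelled replicate 3 without a partner, the whole-aorta differences were 1.68 for Cxcl9, 1.31 for Cxcl10, 1.32 for Cxcl16, 0.88 for Cxcr3 and 1.02 for Cxcr6, those in macrophages 1.38, 0.51, 0.44 and 0.88 for the first 4, and those in T cells -0.06 for Cxcr3 and 0.26 for Cxcr6. Under the block Cxcl10 passed in Gpnmb+ macrophages (0.77) and changed sign in Gpnmb- macrophages (-0.052) and dendritic cells (-0.35), and 32 genes were called in dendritic cells and 20 in place of 271 between macrophages and smooth muscle cells. It changed no other call of the 5 genes.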
